A study of Mus musculus with 6 samples.

Results

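Nitric oxide (NO) synthases and the enzymes that share their substrate were followed in the lung after hemorrhagic shock (HS). The 10 genes, taken by symbol from 54532 genes with deposited counts, were the NO synthases *Nos1*, *Nos2* and *Nos3*, the arginases *Arg1* and *Arg2*, and *Ass1*, *Gch1*, *Ddah1*, *Ddah2* and *Slc7a2*. Lungs came from 3 GRdim/dim and 3 GR+/+ mice of the strain 129/SvEv x C57BL/6, each aged 10 to 16 weeks. GRdim/dim mice carry, in every cell, a point mutation of the glucocorticoid receptor (GR) gene that impairs receptor dimerization, and the GR+/+ mice were wild type littermates. All 6 animals were anesthetized and ventilated, were bled to an arterial mean of 35 mmHg and kept in HS for 1 h, and were then resuscitated for 4 h with their shed blood, colloids and norepinephrine. Lungs of unshocked mice were not analysed here, so that the values below compare genotypes after shock and do not give the effect of shock. The GR+/+ group held 2 females and 1 male and the GRdim/dim group 1 female and 2 males, without a label that ties sex to a library. The mutation cannot be seen in counts per gene, and the genotype labels could not be checked in this way.

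NO synthases convert arginine to NO and citrulline. *Nos3* encodes the endothelial enzyme, *Nos1* the neuronal enzyme, and *Nos2* the inducible enzyme (iNOS), which is made after inflammatory stimuli and is a classical target of repression by glucocorticoids. Arginases use the same arginine to make ornithine and urea, *Slc7a2* carries arginine into the cell, and *Ass1* returns citrulline towards arginine. *Gch1* starts the synthesis of tetrahydrobiopterin, a cofactor of all NO synthases, while *Ddah1* and *Ddah2* belong to the family that degrades methylated arginines, which block these enzymes.

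The libraries were made from poly(A) RNA, one per lung, and held between 15687734 and 32082940 counts. Counts were scaled to 1000000 per library (CPM) with TMM factors. edgeR's quasi-likelihood test compared the genotypes over 16568 genes with enough reads, and its *p*-values were adjusted by the Benjamini-Hochberg method over all of these. A gene was called when the adjusted *p*-value was below 0.05 and the log2 fold change beyond 0.5. Markers of alveolar type 1 and type 2, club and endothelial cells were counted in every library, as lung tissue requires. In whole lung, fewer cells of a type and less RNA per cell cannot be told apart.

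The level of each gene was first compared per length, as CPM per kb of gene length. *Ddah2* stood highest, with 21.6 to 47.8 CPM per kb over the 6 libraries. Its range did not overlap that of any other of the 10 genes. *Ass1* (7.44 to 12.3 CPM per kb), *Gch1* (5.01 to 9.79), *Arg2* (4.70 to 8.96), *Slc7a2* (3.97 to 7.19) and *Ddah1* (3.32 to 7.50) followed in this order of their means, with ranges that overlapped from each gene to the next. Among the synthases, *Nos3* lay at 1.36 to 2.66 CPM per kb and *Nos2* at 0.338 to 2.34, so that these neighbours overlapped as well. *Arg1* had 0.242 to 0.899 CPM per kb, overlapping the lower part of the *Nos2* range, and *Nos1* was lowest with 0 to 0.0232. By these counts, arginase RNA was mainly *Arg2*, whose level per length was 5.82 to 22.1 times that of *Arg1* within the single libraries. The size of this ratio is uncertain, since *Arg2* shares 285 exonic bases with *Vti1b* on the opposite strand, a gene at 59.1 to 94.5 CPM.

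**Figure D1:**
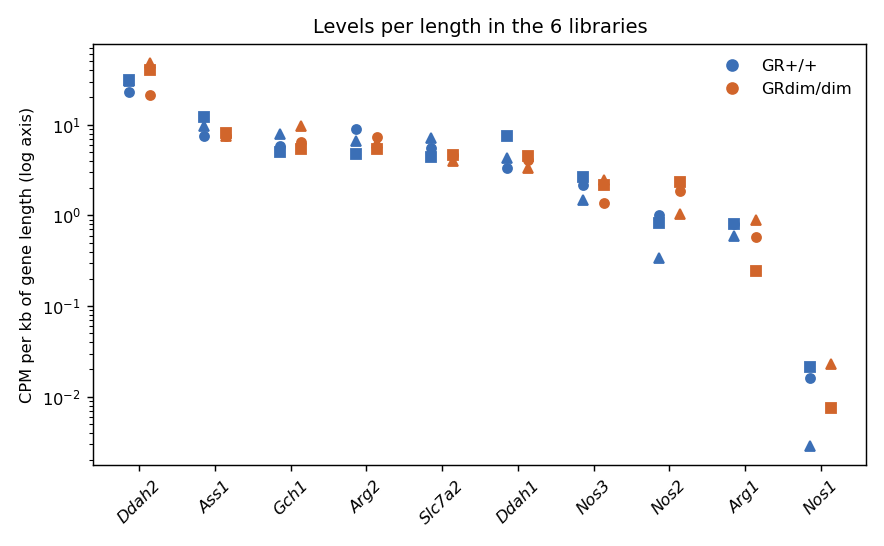
Level of the 10 genes in CPM per kb of gene length (log axis) in the 3 GR+/+ (blue) and 3 GRdim/dim (orange) libraries, with circles, squares and triangles for replicates 1, 2 and 3 and the genes ordered by their mean. *Ddah2* is highest at 21.6 to 47.8 and *Nos1* lowest at up to 0.0232; the one library without a *Nos1* read, at 0, cannot be drawn on this axis.

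*Nos2* (ENSMUSG00000020826, chromosome 11 of GRCm38 from 78920787 to 78960254, plus strand) was the one gene of the 9 tested whose libraries separated by genotype, a separation found in 14.8% of all genes tested. Its level was 4.48, 3.66 and 1.49 CPM in GR+/+ replicates 1, 2 and 3 and 8.30, 10.3 and 4.52 CPM in GRdim/dim replicates 1, 2 and 3. All GRdim/dim libraries thus lay above all GR+/+ libraries, but the lowest GRdim/dim and the highest GR+/+ library nearly met. The counts behind these values were 75, 61 and 47 in GR+/+ and 154, 248 and 70 in GRdim/dim lungs. The means were 3.21 ± 1.54 CPM (SD, n = 3) and 7.71 ± 2.94 CPM (SD, n = 3). The log2 fold change was 1.29 with a standard error of 0.44 and a 95% interval of 0.30 to 2.27, a 2.44-fold higher level in GRdim/dim lungs. With an unadjusted *p* = 0.0152 and an adjusted *p* = 0.392 in edgeR's quasi-likelihood test, *Nos2* was not called. By its *p*-value it ranked 640 among the 16568 genes, of which 0.169% were called and 9.60% had an unadjusted *p*-value under 0.05. DESeq2 gave a log2 fold change of 1.28 with an adjusted *p* = 0.123, which was not called either. The exact permutation test of the *Nos2* level gave *p* = 0.1 (two-sided), the smallest that 3 against 3 allow.

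The narrow gap between the genotypes depended on the scaling. With total counts in place of TMM factors, the highest GR+/+ library had 4.51 CPM and the lowest GRdim/dim library 4.46 CPM, and the groups overlapped. Without GRdim/dim replicate 2, the highest library, the unadjusted *p*-value of *Nos2* was 0.0659. The log2 fold change without any one library ranged from 0.93 to 1.61 and stayed positive.

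*Nos3* (chromosome 5, 24364810 to 24384474) had 8.84, 11.0 and 6.16 CPM in GR+/+ and 5.61, 8.85 and 10.1 CPM in GRdim/dim libraries. The groups overlapped throughout, and the log2 fold change was -0.07 (95% interval -0.77 to 0.62, edgeR adjusted *p* = 0.971). This interval leaves room for a change of either sign. The 6 endothelial markers summed to 2226 to 3395 CPM in GR+/+ and 2697 to 3109 CPM in GRdim/dim lungs. GR+/+ replicate 3 and GRdim/dim replicate 1 each had the lowest endothelial sum and the lowest *Nos3* level of their group. In GRdim/dim lungs the highest sum was in replicate 2 and the highest *Nos3* level in replicate 3. A link between these levels was not tested. Among these markers, *Cldn5* was 1.91-fold higher in GRdim/dim lungs without overlap (unadjusted *p* = 0.00512 in edgeR, not called), while the other 5 had folds of 0.73 to 0.94. *Nos3* shares 1040 exonic bases with the antisense gene *Gm15587*, which itself was at 0.415 to 1.49 CPM, and the use of strand in counting is not given in the sources used here.

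*Nos1* (chromosome 5, 117781032 to 117958840) was near the limit of detection. GR+/+ libraries held 3, 4 and 1 reads and GRdim/dim libraries 0, 2 and 4, too few for the test. Over the groups this is 8 reads or 0.123 per 1000000 counts (exact Poisson 95% interval 0.0531 to 0.242) in GR+/+ and 6 reads or 0.103 per 1000000 (0.0377 to 0.223) in GRdim/dim lungs, where the intervals cover counting error only. At this depth no difference could be detected.

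**Figure D2:**
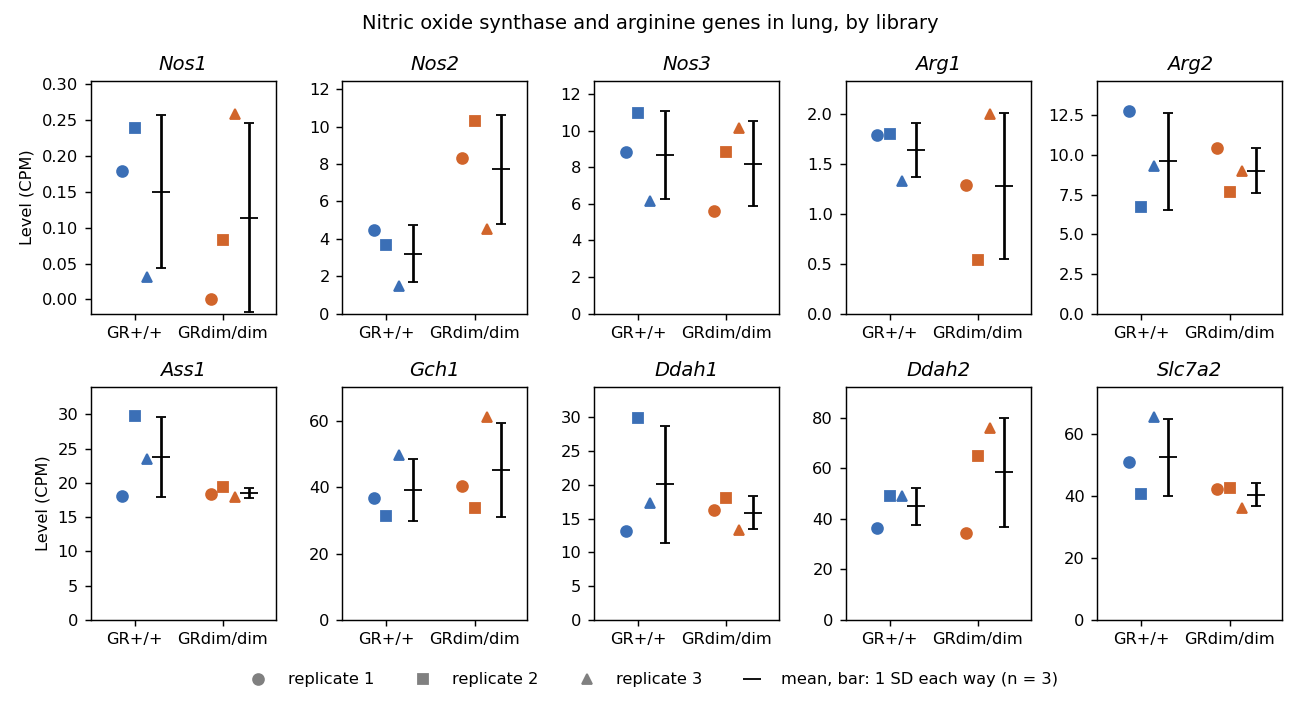
Level in CPM of each of the 10 genes by genotype; circles, squares and triangles are replicates 1, 2 and 3, and the black bar gives the mean with 1 SD to each side (n = 3). *Nos2* is the one gene whose 3 GRdim/dim libraries (4.52 to 10.3 CPM) all lie above the 3 GR+/+ libraries (1.49 to 4.48 CPM), by a narrow gap; the axes differ between genes.

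The amount of *Nos2* relative to *Nos3* and to the arginases was also set out within each library, per length. The ratio of *Nos2* to *Nos3* was 0.475, 0.312 and 0.227 in GR+/+ and 1.39, 1.09 and 0.418 in GRdim/dim libraries. By this ratio, *Nos2* was above *Nos3* in GRdim/dim replicates 1 and 2 and below it in the other 4 libraries. In GRdim/dim replicate 2 the ratio was near 1, from 248 *Nos2* and 213 *Nos3* counts, so that the order there is uncertain. The unknown use of strand where *Nos3* overlaps *Gm15587* also bears on this ratio. The genotypes overlapped in this ratio, with a mean difference of 1.41 on the log2 scale. *Nos2* relative to *Arg1* plus *Arg2* was 0.104, 0.15 and 0.0474 in GR+/+ and 0.238, 0.417 and 0.143 in GRdim/dim libraries, a log2 difference of 1.42. Exact permutation tests gave *p* = 0.2 for both ratios, and an adjusted *p* = 0.4 over 5 ratios compared. The other ratios, *Arg2* to *Arg1*, *Ddah2* to *Ddah1* and *Gch1* to *Ass1*, differed by 0.49, 0.58 and 0.51 on the log2 scale, each with overlapping libraries and an exact permutation *p* = 0.4.

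Levels of immune cell markers are given beside *Nos2*, since neutrophils and macrophages can express it. The summed level of 6 neutrophil markers was 466, 325 and 239 CPM in GR+/+ and 1078, 340 and 478 CPM in GRdim/dim replicates 1, 2 and 3. GRdim/dim replicate 1 was highest by this sum, most of which was *S100a8* (397 CPM) and *S100a9* (348 CPM). *Nos2* was highest in GRdim/dim replicate 2, whose neutrophil sum lay within the GR+/+ range. Of these markers, *S100a9* and *Retnlg* fell under 0.05 by the unadjusted edgeR *p*-value, both with the higher level in GRdim/dim lungs, and none was called. *Retnlg* had 30.8, 18.6 and 18.5 CPM in GR+/+ and 68.6, 34.1 and 42.6 CPM in GRdim/dim replicates 1, 2 and 3. It did not overlap between the genotypes, whereas the other neutrophil markers did. The sum of 6 alveolar macrophage markers was 344 to 375 CPM in GR+/+ and 206 to 227 CPM in GRdim/dim lungs, without overlap and in the opposite direction to *Nos2*. *Chil3* contributed most to this sum in each library, with the lower level in GRdim/dim lungs (log2 fold change -0.88, unadjusted *p* = 0.00189 in edgeR, not called). The other 5 of these markers summed to 99.3, 124 and 87.6 CPM in GR+/+ and 65.7, 49.6 and 120 CPM in GRdim/dim lungs, which overlapped. Of these, *Fabp4* had 55.3, 77.3 and 22.1 CPM in GR+/+ and 22.2, 10.3 and 82.7 CPM in GRdim/dim lungs. *Fabp4* made up most of this sum of 5 markers in GR+/+ replicates 1 and 2 and in GRdim/dim replicate 3, and less in the other libraries. *Ear1*, *Ear2*, *Marco* and *Siglecf* had folds of 0.995, 0.76, 0.61 and 1.25, each with overlap. The 8 markers of monocytes and interstitial macrophages summed to 256 to 359 CPM in GR+/+ and 308 to 409 CPM in GRdim/dim lungs, which overlapped. One of them, *Ly6c2*, had 7.37 to 8.19 CPM in GR+/+ and 8.72 to 22.3 CPM in GRdim/dim lungs (log2 fold change 0.80, unadjusted *p* = 0.0444 in edgeR, not called). None of these markers was at 0 in any library. The part of cell numbers in the *Nos2* difference was not tested.

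**Figure D3:**
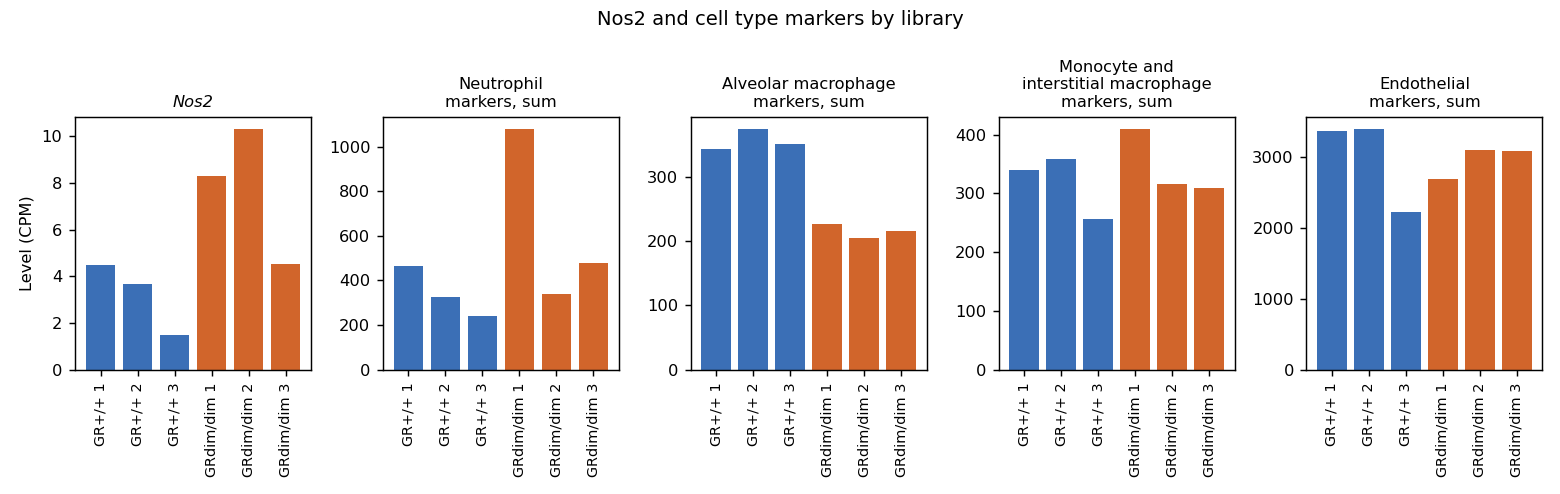
Level of *Nos2* and summed levels of the markers of 4 cell types in CPM, one bar per library (blue, GR+/+; orange, GRdim/dim; every axis starts at 0). *Nos2* is highest in GRdim/dim replicate 2 (10.3 CPM), the neutrophil sum in GRdim/dim replicate 1 (1078 CPM), and the alveolar macrophage sum is lower in all GRdim/dim libraries (206 to 227 CPM).

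Both arginases overlapped between the genotypes. *Arg1* (chromosome 10, 24915221 to 24927484), a cytosolic enzyme and a marker of alternatively activated macrophages, had 1.79, 1.80 and 1.33 CPM in GR+/+ and 1.29, 0.540 and 2.0 CPM in GRdim/dim libraries. Both the lowest and the highest value belonged to GRdim/dim lungs. The log2 fold change of -0.38 had a 95% interval of -1.48 to 0.73, the widest of the 9 genes tested. *Arg2* (chromosome 12, 79130777 to 79156301), which encodes the mitochondrial arginase, had 12.8, 6.71 and 9.34 CPM in GR+/+ and 10.5, 7.64 and 8.98 CPM in GRdim/dim libraries. All 3 GRdim/dim values lay within the GR+/+ range, with a log2 fold change of -0.09 (95% interval -0.73 to 0.55). *Arg2* shares 285 exonic bases with *Vti1b*, an antisense gene at 59.1 to 94.5 CPM, and reads there cannot be told apart without strand.

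*Slc7a2* (chromosome 8, 40862396 to 40922308), the transporter, was expressed at 51.1, 40.8 and 65.7 CPM in GR+/+ and 42.4, 42.7 and 36.2 CPM in GRdim/dim libraries. Only GR+/+ replicate 2 fell among the GRdim/dim values. The log2 fold change was -0.38 (standard error 0.20, 95% interval -0.83 to 0.07), with unadjusted *p* = 0.0924 in edgeR. The antisense gene *Gm26584*, which shares 635 exonic bases with *Slc7a2*, had at most 3 counts in a library. The edgeR *p*-value, unadjusted, was 0.0371 without GR+/+ replicate 2 and 0.378 without GR+/+ replicate 3, where the log2 fold change was -0.18.

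*Ass1* (chromosome 2, 31470207 to 31520672), argininosuccinate synthase, had 18.1, 29.7 and 23.5 CPM in GR+/+ and 18.3, 19.4 and 18.0 CPM in GRdim/dim libraries. The GRdim/dim libraries were close to each other (SD 0.06 on the log2 scale against 0.36 in GR+/+) and close to the lowest GR+/+ library. The log2 fold change was -0.36 (95% interval -0.85 to 0.13, adjusted *p* = 0.674 in edgeR), and -0.16 without GR+/+ replicate 2. Of the windows of 31 bases in *Ass1* transcripts, 43.1% also occur in other genes, mainly the pseudogene *Gm5424*, which had 0 to 5 counts per library, so that the level of *Ass1* is uncertain to the extent that shared reads were dropped or split.

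*Gch1* (chromosome 14, 47153895 to 47189413), GTP cyclohydrolase, had 36.9, 31.3 and 49.7 CPM in GR+/+ and 40.5, 33.9 and 61.2 CPM in GRdim/dim libraries. Replicate 3 was the highest library of each genotype, and the log2 fold change was 0.20 (95% interval -0.36 to 0.76). The dimethylarginine hydrolase genes follow. *Ddah1* (chromosome 3, 145758675 to 145894277) had 13.2, 29.9 and 17.2 CPM in GR+/+ and 16.2, 18.1 and 13.2 CPM in GRdim/dim libraries, a log2 fold change of -0.34 (95% interval -1.0 to 0.32). GR+/+ replicate 2 stood above all other libraries in this gene, and without it the log2 fold change was 0.061. *Ddah2* (chromosome 17, 35059035 to 35062095) had 36.6, 49.3 and 49.0 CPM in GR+/+ and 34.3, 64.8 and 76.2 CPM in GRdim/dim libraries, a log2 fold change of 0.38 (95% interval -0.23 to 0.98). Both the lowest and the highest *Ddah2* level were found in GRdim/dim lungs. Its log2 fold change was 0.65 without GRdim/dim replicate 1 (edgeR, unadjusted *p* = 0.0101) and 0.14 without GRdim/dim replicate 3 (edgeR, unadjusted *p* = 0.613).

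Over the 9 genes tested, 0 were called, against 28 of all 16568 genes. DESeq2 called 0 of the 9 as well, against 272 of 15917 genes (1.71%). *Nos2* was the one with an unadjusted *p*-value under 0.05, a threshold that 4.91% of all genes passed with the higher and 4.68% with the lower level in GRdim/dim lungs. In 3 genes the log2 fold change was positive and in 6 negative, with a median of -0.09 against 0.01 over all genes tested. Apart from *Nos2*, the adjusted *p*-values lay between 0.605 and 0.971. The spread between libraries of a genotype was 0.72 on the log2 scale for *Nos2*, 0.64 for *Arg1* and 0.26 for *Ass1* and *Slc7a2*, and its median over all genes tested was 0.30.

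**Figure D4:**
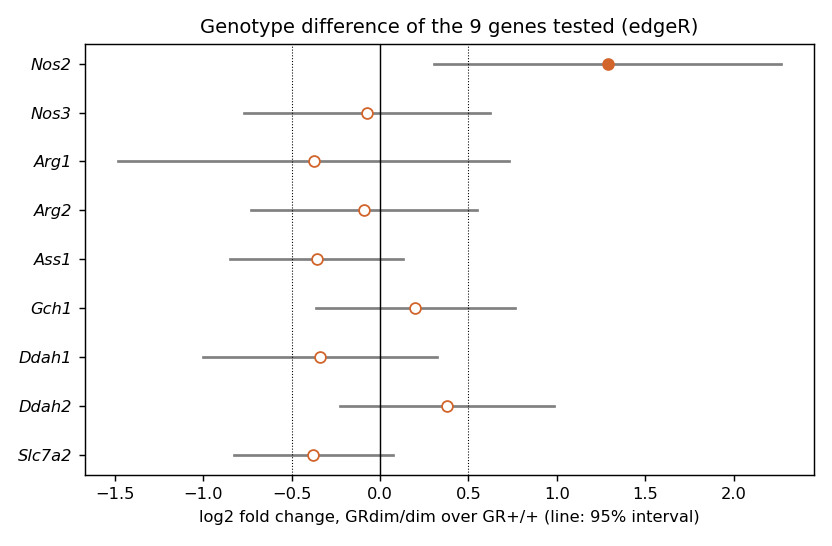
Log2 fold change of GRdim/dim over GR+/+ for the 9 genes tested with edgeR; lines are 95% intervals, dotted lines mark 0.5 to each side, and a filled point marks a gene whose libraries did not overlap. The interval of *Nos2* (0.30 to 2.27) lies above 0 and those of the other 8 genes include 0.

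The levels were further set beside 62 other genes of arginine and NO metabolism, of which 57 could be tested. Here, too, 0 were called by edgeR, 3 had an unadjusted *p*-value under 0.05 with the higher and 2 with the lower level in GRdim/dim lungs, and 7 did not overlap between genotypes. The shares are 5 of 57 and 7 of 57, beside 9.60% and 14.8% of all genes. The median log2 fold change was 0.07. The urea cycle genes *Cps1*, *Otc* and *Nags*, and also *Agxt2* and *Agmat*, had too few reads in lung. *Cps1*, the entry enzyme of the hepatic cycle, had 4 reads in GR+/+ replicate 3 and 0 in all other libraries. This library also held most liver marker RNA, with a sum of 55.8 CPM over 4 markers against 0.970 to 4.50 CPM in the other 5. Of its sum, *Alb* alone made up 47.5 CPM.

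*Prodh* and *Prkg2* had the smallest *p*-values in the list. *Prodh* (chromosome 16, 18060357 to 18090203), proline dehydrogenase, which opens the breakdown of proline, had 42.5, 77.8 and 52.8 CPM in GR+/+ and 22.6, 23.5 and 31.2 CPM in GRdim/dim libraries. All GRdim/dim libraries were lower. Its log2 fold change was -1.16 (standard error 0.25), with an adjusted *p* = 0.131 in edgeR. *Prkg2* (chromosome 5, 98929773 to 99037351), a cGMP-dependent protein kinase downstream of NO, had 32.8, 27.8 and 22.0 CPM in GR+/+ and 15.5, 11.6 and 12.2 CPM in GRdim/dim libraries. The groups were again apart. Its log2 fold change was -1.07 (standard error 0.23), with an adjusted *p* = 0.131. DESeq2 called both genes, with adjusted *p* = 0.00231 for *Prodh* and 0.00290 for *Prkg2*.

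Other parts of NO signalling downstream of the synthases were, like *Prkg2*, not called by edgeR. The subunits of the NO receptor, soluble guanylate cyclase, had log2 fold changes of -0.14 (*Gucy1a1*), -0.09 (*Gucy1a2*) and -0.09 (*Gucy1b1*). The related kinase *Prkg1* had one of -0.71 with overlapping libraries. The phosphodiesterase *Pde5a*, which removes cGMP, had 0.09.

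Among proteins that bind NO synthases, *Nostrin*, which traffics the endothelial enzyme away from the membrane, had 32.3, 31.5 and 28.0 CPM in GR+/+ and 52.0, 48.0 and 36.1 CPM in GRdim/dim libraries. The GRdim/dim libraries were all higher, with a log2 fold change of 0.57 and an unadjusted *p* = 0.0134 in edgeR that did not hold after adjustment (0.374). *Nos1ap*, an adaptor of the neuronal enzyme, had 6.75, 4.02 and 3.91 CPM in GR+/+ and 3.83, 2.91 and 1.49 CPM in GRdim/dim libraries. Its groups did not overlap, but only by the narrow gap from 3.83 to 3.91 CPM (log2 fold change -0.82, unadjusted *p* = 0.0673 in edgeR). *Nos1ap* shares 171 exonic bases with *Gm7694*, a gene on the same strand at 14.6 to 19.4 CPM, so its level is uncertain. The caveolin gene *Cav1*, whose product holds the endothelial enzyme inactive, had 0.34, with overlap.

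Of the arginine methyltransferases, whose products are the source of methylated arginines, *Prmt2* and *Prmt3* did not overlap. *Prmt2* had 52.8, 60.4 and 65.5 CPM in GR+/+ and 67.5, 80.9 and 95.3 CPM in GRdim/dim libraries (log2 fold change 0.45, unadjusted *p* = 0.0312 in edgeR). *Prmt3* had 19.1, 18.9 and 18.8 CPM in GR+/+ and 27.4, 19.8 and 26.3 CPM in GRdim/dim libraries (0.37, unadjusted *p* = 0.0916). *Prmt1*, the main source of asymmetric dimethylarginine, had 0.22 with overlap. Of the transporters, *Slc7a6* had 41.4, 44.8 and 47.2 CPM in GR+/+ and 41.1, 37.4 and 37.8 CPM in GRdim/dim libraries, a separation of small size (log2 fold change -0.20, unadjusted *p* = 0.248).

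In the branch that leads from ornithine to polyamines and proline, 12 of 15 genes tested had a positive log2 fold change, as did 8439 of all 16568 genes. Its median was 0.11, 1 gene had an unadjusted *p*-value under 0.05 with the higher level in GRdim/dim lungs, and *Prodh*, described above, had the lower level. *Odc1*, ornithine decarboxylase, which makes putrescine, had 102, 75.4 and 98.5 CPM in GR+/+ and 127, 100 and 152 CPM in GRdim/dim libraries. GRdim/dim replicate 2 lay just below the highest GR+/+ library, and the unadjusted *p*-value of the log2 fold change of 0.46 was 0.0420 in edgeR (adjusted 0.494). With a covariate for sex-linked expression, the log2 fold change of *Odc1* was 0.32 (unadjusted *p* = 0.154 in edgeR). *Odc1* shares 31.3% of its windows of 31 bases with other genes, mainly *Gm7993*, which itself was at 8.39 to 24.5 CPM, so its level is uncertain. Of the 7 genes that make and recycle tetrahydrobiopterin, none had an unadjusted *p*-value under 0.05 and none was free of overlap, *Qdpr* having the largest log2 fold change (0.35).

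**Figure D5:**
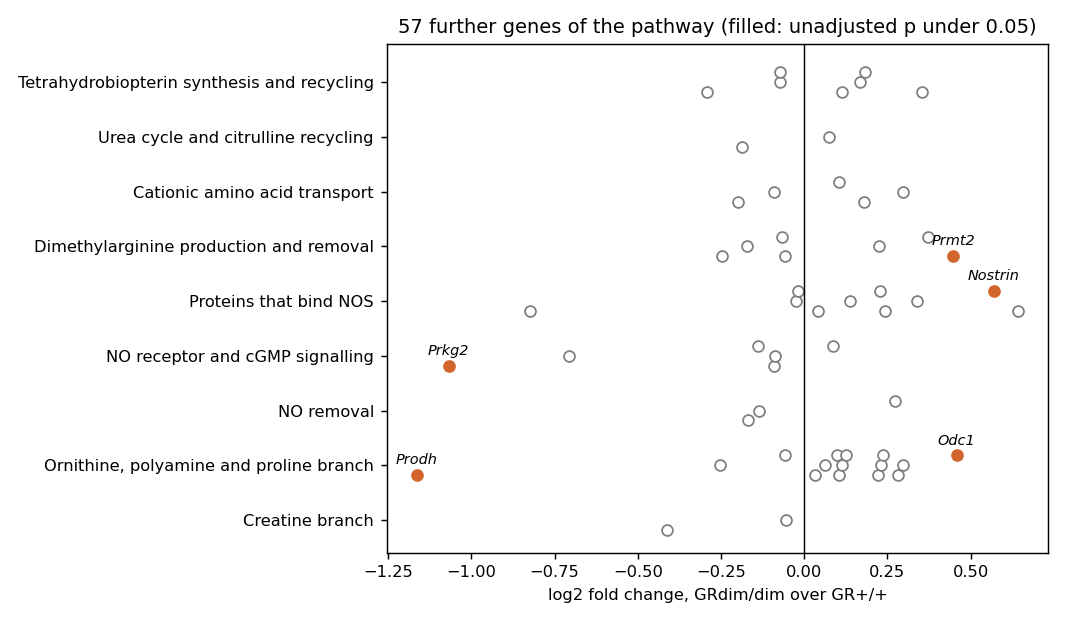
Log2 fold change of GRdim/dim over GR+/+ for the 57 further genes tested, by role; filled points with names are below 0.05 by the unadjusted edgeR *p*-value, and the vertical spread within a role has no meaning. *Prodh* (-1.16) and *Prkg2* (-1.07) lie farthest to the left, and *Nostrin*, *Odc1* and *Prmt2* lie between 0.45 and 0.57.

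Promoters from RefSeq (GRCm38.p6, 250 bases before to 50 bases after the start) were at hand for 5 of the 10 genes, *Nos1*, *Ass1*, *Gch1*, *Ddah1* and *Ddah2*. Since GR binds DNA, the half-site letters AGAACA of a glucocorticoid response element were searched on both strands. None of the 5 windows held them, and 19.0% of all 32851 promoter windows did. GC boxes (GGGCGG, either strand, in 35.7% of all windows) occurred 3 times in *Ddah2*, 2 times in *Gch1*, 1 time in *Ass1* and not in *Nos1* and *Ddah1*. The pair of dimethylarginine hydrolase genes is shown, as the most abundant gene of the set and its relative, together with *Nostrin*, whose window held the half-site 2 times. It was the 1 of 7 named pathway genes with a window (*Slc7a6*, *Prmt2*, *Prmt3*, *Nostrin*, *Nos1ap*, *Odc1* and *Prodh*) to hold it. Capitals mark GC boxes in *Ddah2* and half-sites in *Nostrin*, and a match describes letters and not a bound site. The windows are chr17:35058785-35059084 (plus strand), chr3:145758442-145758741 (plus strand) and chr2:69135550-69135849 (plus strand).
Ddah2: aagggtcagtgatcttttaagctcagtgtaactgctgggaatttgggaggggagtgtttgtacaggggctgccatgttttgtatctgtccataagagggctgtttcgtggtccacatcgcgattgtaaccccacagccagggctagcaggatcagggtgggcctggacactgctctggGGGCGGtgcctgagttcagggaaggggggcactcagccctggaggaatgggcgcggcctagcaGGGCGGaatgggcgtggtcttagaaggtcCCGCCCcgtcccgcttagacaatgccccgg
Ddah1: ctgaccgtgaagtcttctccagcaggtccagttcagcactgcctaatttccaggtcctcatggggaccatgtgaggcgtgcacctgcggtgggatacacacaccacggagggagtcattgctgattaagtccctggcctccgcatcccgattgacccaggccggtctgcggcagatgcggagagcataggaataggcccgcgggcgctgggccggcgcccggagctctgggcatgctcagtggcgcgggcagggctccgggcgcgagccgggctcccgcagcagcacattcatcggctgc
Nostrin: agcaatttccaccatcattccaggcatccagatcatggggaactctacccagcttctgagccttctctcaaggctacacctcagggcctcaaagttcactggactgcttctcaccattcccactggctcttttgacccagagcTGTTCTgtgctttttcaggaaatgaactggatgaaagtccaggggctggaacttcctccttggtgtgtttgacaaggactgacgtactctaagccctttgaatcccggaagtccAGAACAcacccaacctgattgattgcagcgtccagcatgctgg

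For *Nos2* and *Arg1*, the tested genes with the most similar pattern were sought by Pearson's correlation of log2 CPM over the 6 libraries. The 5 closest to *Nos2* were *Kbtbd11* (r = 0.996), *Zcchc24* (0.993), *Arl15* (0.991), *Rhno1* (0.989) and *Dnajc27* (0.986). The 5 closest to *Arg1* were *Adipoq* (r = 0.981), the adipocyte hormone gene, *Cdh22* (0.976), *Rcan1* (0.975), *Mlst8* (0.974) and *Mettl3* (0.973). With 6 points chosen from 16568 genes, and with depth and genotype shared by the points, these values are a description of the libraries.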

How the data were processed

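RNA from the lungs of 6 mice was sequenced as poly(A)-captured libraries. What the authors deposited are raw counts of reads for each gene, not normalized and not pooled. The submitters' processing notes name the build mm10 (GRCm38) and DESeq2, while the aligner, counter, annotation release and use of strand are not given in the sources used here. Coordinates of the 10 genes were identical in GENCODE M21. Genotype and replicate number come from the sample labels, and each library is a separate mouse. Libraries of the same genotype differed beyond sampling noise (chi-square of 19.2 to 62.9 per gene, where noise gives about 1). No other column of per-sample values was present.

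Counts were analysed in R 4.3.3 with edgeR 4.0.16 (TMM, filterByExpr, robust quasi-likelihood fit, Benjamini-Hochberg adjustment over 16568 genes), with no covariate. Standard errors were worked out from the log2 fold change and the F statistic of this fit. The 95% intervals were built from these with the t distribution. Log2 levels outside the fit used a prior count of 2, while the ratios between genes used none. The exact permutation test of 3 against 3 libraries cannot go below *p* = 0.1. The procedure was also run on simulated counts with known fold changes. The outcome of that run is not given here, and no result above rests on it. Depth was 15687734 to 32082940 counts per library.

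The 10 genes, the pathway and marker lists and the tests were chosen with earlier results of these data known. The genes named are the 10 genes, every gene of the pathway list with an unadjusted *p*-value under 0.05 or without overlap, and the 5 genes most similar to *Nos2* and *Arg1*; others were named after their values were seen, as examples of their role. Alternatives were RLE scaling, total counts, no filter, at least 10 counts in every library, DESeq2 1.42.0 on the genes that pass the same filter, a covariate for sex-linked expression, the replicate number as a block, and each library left out in turn. The DESeq2 fits without a library, total counts for fold changes, and ratios without a library were added after seeing the data. Protein and lavage measurements were not analysed here.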

Additional observations from a re-analysis of the deposited data

How the results depend on the processing

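Of the 9 genes tested, the 95% intervals of all but *Nos2* include changes of either sign, and *Nos1* was limited by its 8 and 6 reads per genotype. The 28 genes called became 522 without a filter and 272 with DESeq2, and 4 to 22 with a library left out. *Nos2* was called in the fit without a filter (1 of the 10 genes, log2 fold change 1.28, adjusted *p* = 0.0243) and by DESeq2 without GRdim/dim replicate 3 (1 gene, 1.56, adjusted *p* = 0.0389), and in no other of its 19 alternatives, where its adjusted *p*-value reached 0.603. The cause was not tested. Its log2 fold change stayed positive in all 19 (0.93 to 1.61).

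The number of the 10 genes with an unadjusted *p*-value under 0.05 was 0 to 2 with a library left out, where 6.94% to 11.5% of all genes passed. The number without overlap was 0 with total counts and 1 to 2 with a library left out, where 21.4% to 29.6% of all genes did not overlap. In the pathway list of 62 genes, 2 (*Prodh* and *Prkg2*) were called without a filter and by DESeq2. The fit without a filter did not exclude list genes with too few reads for the main test. In that fit 8 list genes passed the unadjusted threshold of 0.05. *Prodh*, *Prkg2*, *Prmt2*, *Nostrin*, *Odc1* and *Nos1ap* were among these, and the others are not named here. The share of all genes that passed was not worked out for that fit. With a library left out, 3 to 7 list genes passed. The log2 fold changes of 5 genes changed sign with a library left out and ranged from -0.29 to 0.17 for *Arg2*, -0.27 to 0.14 for *Nos3*, -0.56 to 0.061 for *Ddah1*, -0.85 to 0.010 for *Arg1* and -0.080 to 0.41 for *Gch1*. Whether replicate numbers pair the samples cannot be told from the libraries. The correlation of deviations was 0.22, 0.04 and -0.05 for numbers 1, 2 and 3. That of number 1 was the highest of all pairs, but GR+/+ replicate 3 correlated best with GRdim/dim replicate 2 (0.19). With the replicate number as a block, 34 genes were called in all and 0 of the 10, with adjusted *p* = 0.178 for *Nos2* and 0 of the pathway genes. With the covariate for sex-linked expression, 20 genes were called in all, 0 of the 10, and the adjusted *p*-value of *Nos2* was 0.495. With this covariate the log2 fold change was -0.83 for *Arg1*, -0.11 for *Ddah1*, -0.25 for *Arg2*, -0.23 for *Ass1* and 0.099 for *Gch1*. That of *Nos1ap* was -0.52 without GR+/+ replicate 1 and -0.54 without GRdim/dim replicate 3.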
